A study of Homo sapiens with 6 samples.

Results

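Plasma cell differentiation genes were described in Raji cells treated with bryostatin. The 9 members are PRDM1, IRF4, XBP1, MZB1, JCHAIN, DERL3, FKBP11, TXNDC5 and SDC1, taken by gene name from a table of 58735 genes, and each name stood on a single row. They are known regulators, secretory pathway genes and a surface marker of antibody-secreting cells. Raji is an established human line of Burkitt lymphoma B cells, and the cells used here carried a reporter that the labels call GFP-ffluc. Of 6 libraries, 3 came from cells given bryostatin-1, a natural marine compound that activates protein kinase C, at 1 nM overnight at 37 °C, and 3 from cells given the solvent DMSO. All cells grew in the same medium with 10% serum, and polyadenylated RNA was sequenced. The libraries held between 19405370 and 24468270 reads on genes. Whether replicates were grown as separate cultures is not said in the labels. The p-values below therefore reflect variation among these libraries, which may be technical.

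When a B cell becomes a plasma cell, IRF4 and PRDM1 shut down the B-cell programme, and XBP1 enlarges the endoplasmic reticulum (ER) so that immunoglobulin can be folded, assembled and exported. The mRNA of XBP1 yields its active factor only after the ER stress sensor ERN1 has cut it. MZB1, JCHAIN, DERL3, FKBP11 and TXNDC5 belong to the folding, assembly and disposal machinery of that enlarged ER, and SDC1 encodes the surface proteoglycan CD138 by which plasma cells are recognised. Burkitt lymphoma cells resemble germinal centre B cells, the stage before this switch.

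The B-cell label was set against marker lists. The 6 B-cell markers (MS4A1, CD79A, CD79B, CD22, BLK and PAX5) summed to between 940.1 and 1282 FPKM in bryostatin libraries and between 886 and 1373 FPKM in DMSO libraries, where FPKM is fragments scaled to gene length and library size. The 3 T-cell, 3 myeloid, 4 epithelial and 3 fibroblast markers summed to at most 0.727 FPKM in any library. Cell-cycle transcripts set the DMSO libraries apart from each other: relative to the mean of the 6 libraries, the mean log2 level of 22 such genes was 0.45, 0.20 and 0.21 in bryostatin replicates 1 to 3, against -0.64, -0.46 and 0.24 in DMSO replicates 1 to 3. DMSO replicate 3 thus lay inside the bryostatin range. In bulk RNA, fewer cells of a kind and less RNA per cell cannot be told apart.

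Levels of the members spanned the range from among the most abundant transcripts to nearly no reads. JCHAIN was the most abundant member and ranked 122 among 19951 protein-coding genes by mean FPKM, followed by MZB1 (320), XBP1 (1422) and FKBP11 (3090). DERL3 (7882), TXNDC5 (8074), IRF4 (9201) and PRDM1 (9918) followed, and SDC1 ranked 13957. In each group the libraries of neighbouring members in this order did not overlap, apart from TXNDC5 and DERL3 in bryostatin libraries and TXNDC5 and IRF4 in DMSO libraries. Raji cells thus held ample transcripts of immunoglobulin assembly genes beside low transcripts of the regulators IRF4 and PRDM1.

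**Figure D1:**
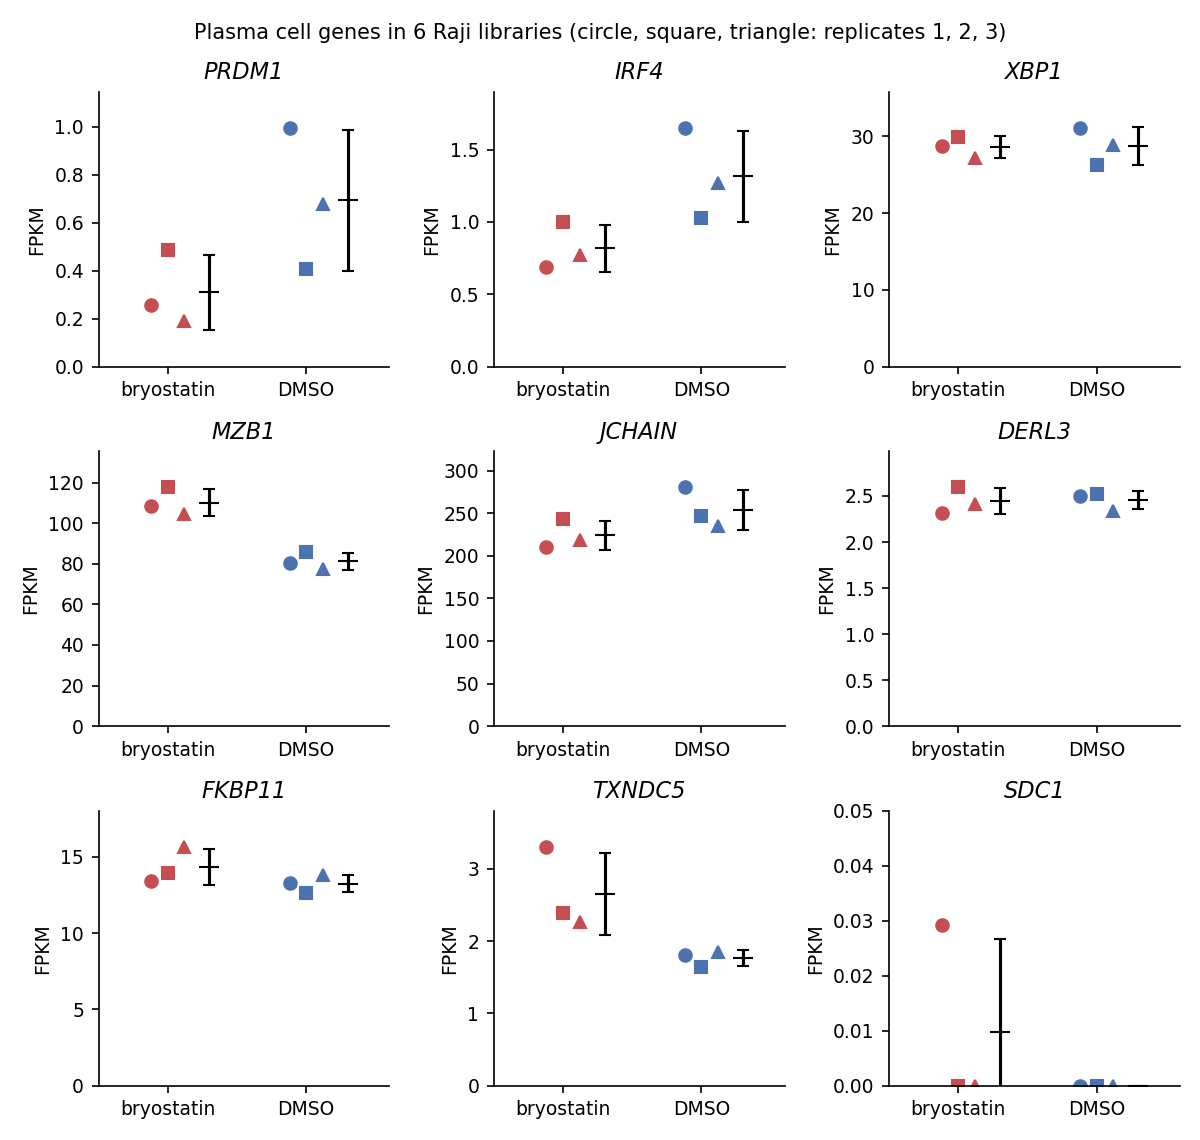
FPKM of each member (vertical axis, starting at 0) in the 3 bryostatin libraries (red, left) and the 3 DMSO libraries (blue, right), with circles, squares and triangles for replicates 1, 2 and 3 and black bars for the mean ± SD. The groups do not overlap for MZB1, TXNDC5 and IRF4, and SDC1 is at 0 in all but bryostatin replicate 1.

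Of the 9 members 7 averaged 1 FPKM or more across libraries and entered the test, limma on log2(FPKM + 1) over 11071 genes. PRDM1 and SDC1 lay below that level. IRF4 passed it with a mean of 1.07 FPKM, which its DMSO libraries carried, since the bryostatin mean was under 1 FPKM. No member had an adjusted p under 0.05, and neither did any other gene, so that 0.0% of the genes tested were called. Without DMSO replicate 3, 266 genes were called (196 higher and 70 lower), still with 0 members. At an unadjusted p under 0.05 limma gave 3 of the 7 tested members, against 17.6% of all genes tested. These were MZB1 and TXNDC5 on the higher side, where 10.5% of all genes lay, and IRF4 on the lower side, where 7.18% lay. Scaling to TPM turned the split of all such genes to 848 higher and 1099 lower, against 1159 higher and 795 lower as deposited. The log2 changes were then 0.39 for MZB1, 0.46 for TXNDC5 and -0.57 for IRF4. TPM values are larger than FPKM values, so the added 1 weighs less on low genes and these sizes do not reflect scaling alone. With median-of-ratios scaling the log2 changes were 0.41 for MZB1, 0.37 for TXNDC5 and -0.35 for IRF4. The same 3 were the members whose groups did not overlap, a property of 23.6% of all genes tested. The median log2 change was -0.0042 over the 7 tested members and 0.02 over all genes tested.

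**Figure D2:**
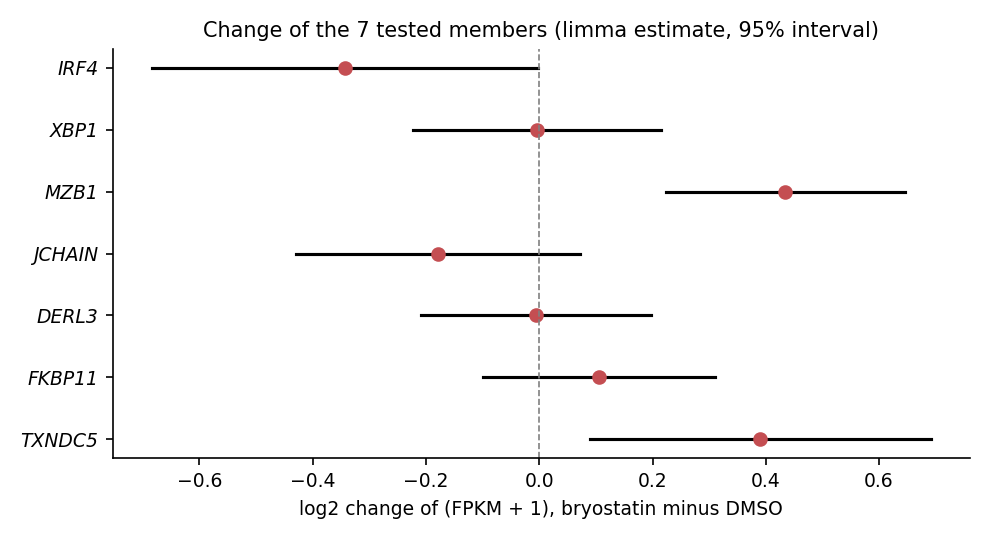
Log2 change of FPKM + 1, bryostatin minus DMSO (horizontal axis), for the 7 tested members, with the limma estimate as a point and its 95% interval as a line. The intervals of MZB1, TXNDC5 and IRF4 lie on one side of 0, from 0.22 to 0.65 for MZB1, whereas those of XBP1, JCHAIN, DERL3 and FKBP11 span it.

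Among the regulators, PRDM1 encodes the repressor that ends the B-cell programme (ENSG00000057657, chromosome 6, 106086320 to 106109939, hg38). It was at 0.256, 0.485 and 0.189 FPKM in bryostatin replicates 1 to 3, against 0.997, 0.407 and 0.679 FPKM in DMSO replicates 1 to 3. These levels rested on 31, 62 and 26 reads in bryostatin libraries, against 157, 57 and 87 reads in DMSO libraries. Bryostatin replicate 2 lay above DMSO replicate 2, so the groups overlapped. The mean was 0.310 ± 0.155 FPKM with bryostatin and 0.694 ± 0.295 FPKM in DMSO (SD, n = 3 each), 2.24-fold lower with bryostatin, and the exact two-sided permutation test gave p = 0.2, where 3 against 3 libraries cannot go below 0.1. With the filter lowered to 0.1 FPKM the log2(FPKM + 1) change was -0.36 with a 95% interval from -0.74 to 0.01 (adjusted p = 0.374 in limma). On recovered reads with voom weights at the same filter, an alternative chosen after seeing the data, it was -1.22 with an interval from -2.15 to -0.30 (adjusted p = 0.222 in limma). These changes differ in size because the pseudocount of 1 FPKM exceeds the level of the gene.

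IRF4 encodes an interferon regulatory factor that in B cells acts upstream of PRDM1 and is needed for plasma cells (ENSG00000137265, chromosome 6, 391739 to 411447). It was at 0.688, 1.00 and 0.770 FPKM in bryostatin replicates 1 to 3 and at 1.65, 1.03 and 1.27 FPKM in DMSO replicates 1 to 3. Each bryostatin library lay below each DMSO library, but replicate 2 of the groups, with 118 reads in bryostatin and 133 reads in DMSO, lay close together. The mean was 0.819 ± 0.162 FPKM with bryostatin and 1.32 ± 0.314 FPKM in DMSO (SD, n = 3 each). The log2(FPKM + 1) change was -0.34 ± 0.145 (SE), with a 95% interval from -0.68 to -0.0028 (unadjusted p = 0.0486, adjusted p = 0.282 in limma). With voom weights on the recovered reads, without the added pseudocount of 1 FPKM, it was -0.70 (adjusted p = 0.183 in limma). Without DMSO replicate 1 the log2(FPKM + 1) difference was -0.24, with no test because the mean then lay below the filter.

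XBP1, the transcription factor of the unfolded protein response (ENSG00000100219, chromosome 22, 28794555 to 28800597), was at 28.8, 29.9 and 27.2 FPKM in bryostatin libraries and at 31.1, 26.3 and 28.9 FPKM in DMSO libraries. The bryostatin libraries lay within the DMSO range. The log2 change was -0.0042 with a 95% interval from -0.22 to 0.21 (adjusted p = 0.986 in limma), a fold change between 0.857 and 1.16. Counts per gene do not separate the spliced from the unspliced form of this mRNA. Within each library, which removes the scaling between libraries, the FPKM ratio of IRF4 to XBP1 averaged 0.0286 ± 0.00477 with bryostatin and 0.0454 ± 0.00704 in DMSO (SD, n = 3 each), without overlap. The exact two-sided permutation test gave p = 0.1, the smallest that 3 against 3 libraries allow. Because XBP1 hardly differed between the groups, this ratio largely repeats the IRF4 difference and adds no separate evidence. Ratios between members were not among the planned tests. The ratio of PRDM1 to XBP1 overlapped between the groups.

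MZB1 encodes an ER-resident cochaperone that helps assemble IgM (ENSG00000170476, chromosome 5, 139387480 to 139390081). It was at 108, 118 and 104 FPKM in bryostatin replicates 1 to 3, against 80.4, 85.7 and 77.7 FPKM in DMSO replicates 1 to 3. All bryostatin libraries lay above all DMSO libraries, and the gap between the groups exceeded the range within either. The mean was 110.2 ± 6.82 FPKM with bryostatin and 81.2 ± 4.09 FPKM in DMSO (SD, n = 3 each), and these levels rested on 3536 to 5352 reads per library. The log2 change was 0.43 ± 0.0896 (SE), 1.35-fold, with a 95% interval from 1.17-fold to 1.56-fold. Its unadjusted p was 0.00178, rank 77 of 11071 genes, and its adjusted p was 0.216 in limma, so it did not pass. Over the 16 alternatives the log2 change stayed between 0.39 and 0.47 with an adjusted p between 0.0674 and 0.584 in limma. The cell-cycle transcripts described above were also higher in bryostatin libraries on average, with a median log2 change of 0.57 over 22 genes, and their part in the MZB1 difference was not tested.

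JCHAIN encodes the joining chain that links the units of polymeric IgM and IgA (ENSG00000132465, chromosome 4, 70655541 to 70681817). It was at 211, 243 and 218 FPKM in bryostatin libraries, against 280.3, 247 and 235 FPKM in DMSO libraries. Bryostatin replicate 2 lay between the lower pair of DMSO libraries, so the groups overlapped. The mean was 224 ± 16.8 FPKM with bryostatin and 254 ± 23.4 FPKM in DMSO (SD, n = 3 each), a log2 change of -0.18 ± 0.106 (SE; adjusted p = 0.400 in limma). MZB1 and JCHAIN, both tied to IgM assembly, thus lay on opposite sides of 0. Within a library the FPKM ratio of MZB1 to JCHAIN was 0.514, 0.485 and 0.478 in bryostatin replicates 1 to 3 and 0.287, 0.347 and 0.330 in DMSO replicates 1 to 3. This ratio does not depend on scaling between libraries, and its groups did not overlap (exact two-sided permutation p = 0.1, the smallest possible). The pair was chosen after the values were seen, and the ratio combines differences already given, so it adds no separate evidence. The immunoglobulin genes that the chain serves were abundant: IGHM, the IgM heavy chain, was at 2546 ± 131 FPKM with bryostatin and 2878 ± 245 FPKM in DMSO (SD, n = 3 each), and IGKC, the kappa light chain, at 285 ± 52.3 FPKM with bryostatin and 345 ± 54.5 FPKM in DMSO. Groups did not overlap for IGHM but did for IGKC, and neither had an unadjusted p under 0.05 in limma. IGHD, the IgD heavy chain, had a log2 change of -0.58 (unadjusted p = 0.0196, adjusted p = 0.232 in limma), and its groups overlapped too.

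**Figure D3:**
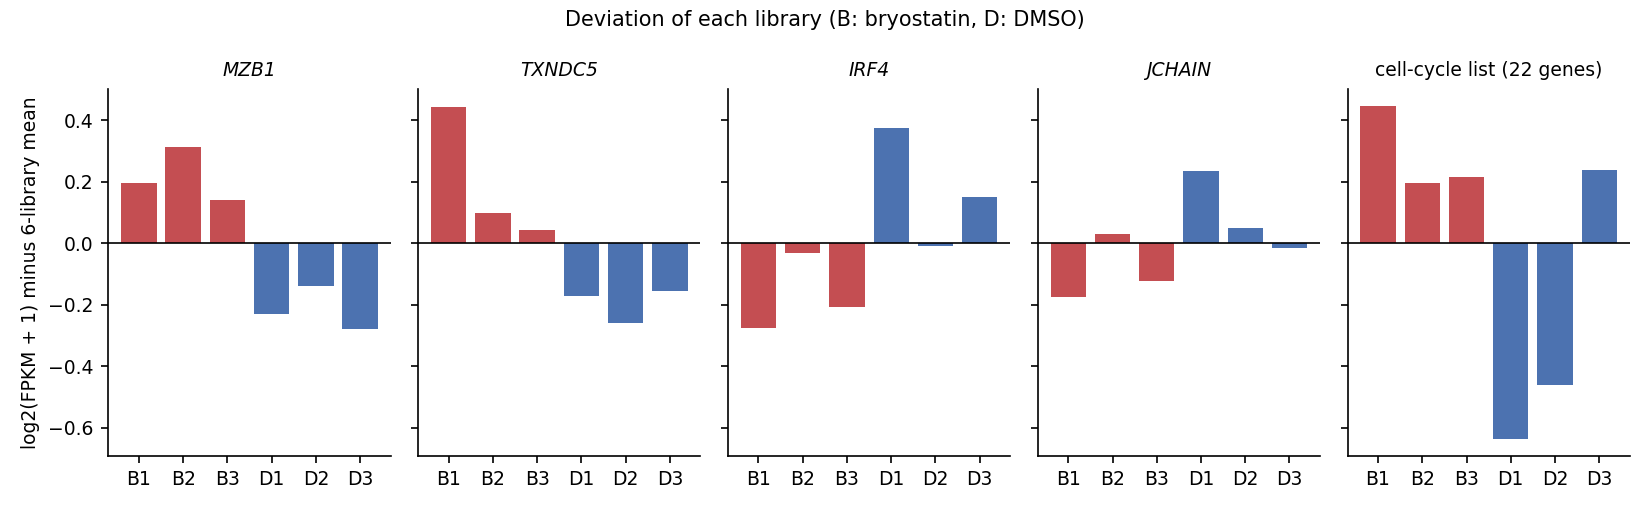
Deviation of log2(FPKM + 1) from the mean of the 6 libraries (vertical axis) for 4 members and for the mean of 22 cell-cycle genes, by library, with bryostatin in red and DMSO in blue. Cell-cycle genes in DMSO replicate 3 (D3) are at 0.24, inside the bryostatin range, and the groups overlap for JCHAIN but not for MZB1, TXNDC5 and IRF4.

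FKBP11 encodes a prolyl isomerase of the ER membrane (ENSG00000134285, chromosome 12, 48921518 to 48926474). It was at 13.4, 13.9 and 15.7 FPKM in bryostatin libraries and at 13.3, 12.6 and 13.8 FPKM in DMSO libraries. The groups overlapped, with bryostatin replicate 3 highest, and the log2 change was 0.11 ± 0.0869 (SE; adjusted p = 0.533 in limma).

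DERL3, a derlin that moves misfolded proteins out of the ER (ENSG00000099958, chromosome 22, 23834503 to 23839128), was at 2.32, 2.59 and 2.42 FPKM in bryostatin libraries, against 2.50, 2.52 and 2.34 FPKM in DMSO libraries. The 6 libraries lay in the same narrow range, and the log2 change was -0.0054 with a 95% interval from -0.21 to 0.20 (adjusted p = 0.981 in limma). Its relatives DERL1 and DERL2 were at 8.43 ± 0.583 and 5.02 ± 0.301 FPKM with bryostatin and at 8.32 ± 0.218 and 4.72 ± 0.428 FPKM in DMSO (SD, n = 3 each).

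TXNDC5 encodes an ER thioredoxin-domain oxidoreductase of the protein disulfide isomerase family (ENSG00000239264, chromosome 6, 7881517 to 7910814). It was at 3.30, 2.39 and 2.26 FPKM in bryostatin replicates 1 to 3, against 1.81, 1.64 and 1.84 FPKM in DMSO replicates 1 to 3. All bryostatin libraries lay above all DMSO libraries, with bryostatin replicate 1 well above the rest. The mean was 2.65 ± 0.568 FPKM with bryostatin and 1.77 ± 0.107 FPKM in DMSO (SD, n = 3 each), from 158 to 275 reads per library. The log2 change was 0.39 ± 0.128 (SE; unadjusted p = 0.0180, adjusted p = 0.230 in limma), and 0.27 without bryostatin replicate 1.

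The levels of DERL3 and TXNDC5 depend on how reads on shared bases were treated, which is not given in the sources used here. Of the 4387 exonic bases of TXNDC5, 2658 (60.6%) are also exons of BLOC1S5-TXNDC5, a readthrough gene on the same strand that the table lists at 0 in all 6 libraries. Of the 3796 exonic bases of DERL3, 2923 (77.0%) lie under exons of SMARCB1 on the opposite strand. Across the table, all 710 genes whose exons lie wholly under exons of the opposite strand, with none shared on their own strand, were listed at 0 in all 6 libraries. Of 1139 genes with exons wholly shared on the same strand 1074 (94.3%) were listed at 0, as were 25509 of 41758 genes with no shared base (61.1%). None of the 1139 averaged 100 reads, whereas 4952 of the 41758 did. The bases of TXNDC5 that no other gene shares number 1729, of which 263 are coding, out of 1296 coding bases of the gene. They comprise stretches of 5, 597, 561, 265 and 301 bases, the last of them, at 7910514 to 7910814, holding all 263 coding bases. Counted per unshared base alone, the mean level of TXNDC5 would be 6.73 FPKM with bryostatin and 4.48 FPKM in DMSO, and that of DERL3 10.6 FPKM with bryostatin and 10.7 FPKM in DMSO. The ratio between the groups is the same on either length. By mean, the order of the members changes only for TXNDC5 and DERL3 in bryostatin libraries, where DERL3 would be the higher. PRDM1, IRF4, XBP1, MZB1 and SDC1 shared no exonic base with another gene, and JCHAIN and FKBP11 shared 5.18% and 5.99%.

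**Figure D4:**
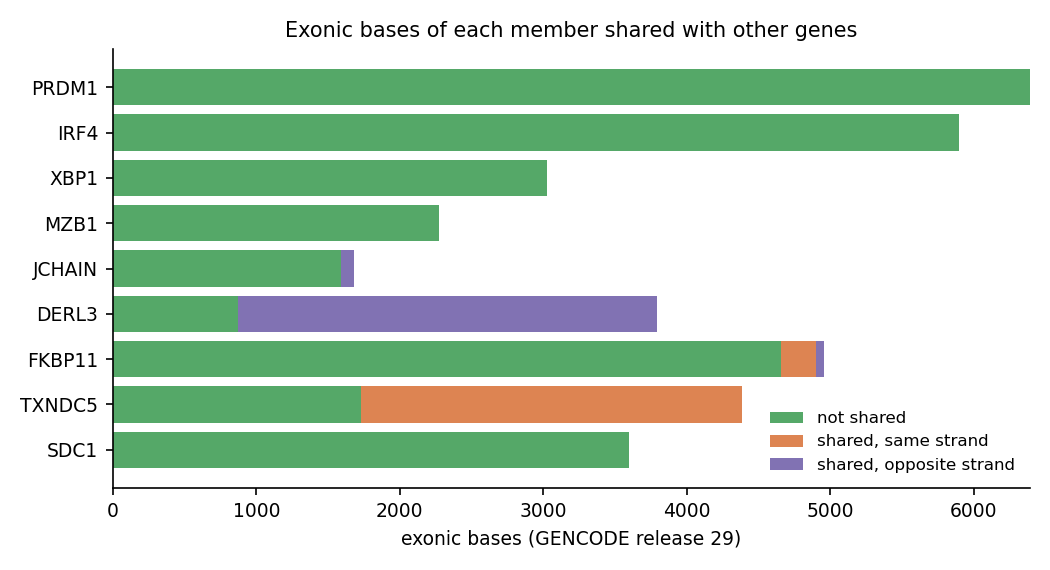
Exonic bases of each member (horizontal axis, GENCODE release 29) that no other gene shares (green), that a gene on the same strand shares (orange) and that a gene on the opposite strand shares (purple). TXNDC5 shares 2658 of 4387 bases on the same strand and DERL3 2923 of 3796 on the opposite strand.

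SDC1, the gene of CD138 (ENSG00000115884, chromosome 2, 20200797 to 20225433), had 2 reads in bryostatin replicate 1 and 0 reads in the other 5 libraries. A count of 0 allows up to 3 reads, which for this gene is 0.0339 to 0.0440 FPKM depending on the library, and the 2 reads amount to 0.0293 FPKM. Both groups lay under that limit, so no fold change is given. A difference between the groups was not detectable at this depth.

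Promoters are shown for the 3 members whose groups did not overlap and for the regulators PRDM1 and XBP1, as the 250 bases before the RefSeq start (GRCh38.p14), read 5′ to 3′ on the gene's strand. RefSeq windows were matched by symbol for 8 of the 9 members, all but DERL3. Capitals mark CCACG on either strand, the core of the ER stress elements bound by ATF6 and XBP1, and the complete ER stress element, which is CCAAT, 9 bases of any kind and CCACG.
MZB1 (chr5:139389914-139390163, minus strand): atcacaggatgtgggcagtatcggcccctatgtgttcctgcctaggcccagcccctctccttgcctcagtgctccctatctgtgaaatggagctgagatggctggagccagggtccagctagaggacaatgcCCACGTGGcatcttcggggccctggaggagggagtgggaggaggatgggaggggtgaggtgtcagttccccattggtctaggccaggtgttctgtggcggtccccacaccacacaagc
TXNDC5, the downstream of 2 windows (chr6:7910078-7910327, minus strand): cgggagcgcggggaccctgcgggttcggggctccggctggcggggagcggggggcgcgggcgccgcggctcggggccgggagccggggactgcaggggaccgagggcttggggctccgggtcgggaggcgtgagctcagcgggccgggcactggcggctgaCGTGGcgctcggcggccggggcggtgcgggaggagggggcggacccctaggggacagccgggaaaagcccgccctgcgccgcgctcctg
IRF4 (chr6:391502-391751, plus strand): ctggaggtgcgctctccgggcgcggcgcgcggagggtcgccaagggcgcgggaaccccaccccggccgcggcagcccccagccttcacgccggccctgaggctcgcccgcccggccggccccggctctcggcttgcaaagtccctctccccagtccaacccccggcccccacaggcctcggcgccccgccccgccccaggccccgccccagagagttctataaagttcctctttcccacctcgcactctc
PRDM1, the upstream of 2 windows (chr6:106086086-106086335, plus strand): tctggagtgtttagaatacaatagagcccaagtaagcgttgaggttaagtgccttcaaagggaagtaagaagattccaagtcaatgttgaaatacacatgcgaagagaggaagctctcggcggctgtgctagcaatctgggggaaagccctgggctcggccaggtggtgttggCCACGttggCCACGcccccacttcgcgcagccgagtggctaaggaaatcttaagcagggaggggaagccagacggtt
XBP1, the upstream of 2 windows (chr22:28800570-28800819, minus strand): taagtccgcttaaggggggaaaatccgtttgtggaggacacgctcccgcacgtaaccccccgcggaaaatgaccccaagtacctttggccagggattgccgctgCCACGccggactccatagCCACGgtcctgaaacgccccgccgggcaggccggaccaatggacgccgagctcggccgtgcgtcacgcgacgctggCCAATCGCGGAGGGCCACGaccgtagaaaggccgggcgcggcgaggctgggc

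The complete ER stress element was found in the XBP1 window, starting 52 bases before the start, and in 22 of 27305 RefSeq windows of the same length (0.0806%). No other member's window held it, and DERL3 had no window to search. MZB1 held CCACG on both strands at the same place, 118 and 115 bases before the start, where the overlapping matches spell CCACGTGG. CCACG was found in 33.3% of the 27305 windows and ACGTGG, which overlaps it, in 8.47%. These shares cover only the first window listed for each gene, whereas every window of a member was searched. The TXNDC5 match lay in its downstream window, which was not the first listed, so the shares are no like comparison for it. ACGTGG was found in the only MZB1 window and in 1 of the 2 windows each of PRDM1, FKBP11 and TXNDC5, and the other windows of these 3 genes held neither motif. SDC1 held CCACG in 1 of its 2 windows and ACGTGG in none, and IRF4 and JCHAIN held neither motif. A pair of GAAA with 2 bases between is a core of interferon regulatory factor sites, and GAAAGT is part of the PRDM1 motif. Searched on both strands, they matched no member window, against 3.07% and 11.5% of the first listed windows. Such matches are descriptions of letters and do not show binding.

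The related genes of the pathway came from 9 lists of 127 genes, 115 of them tested. None passed in limma, with 7 on the higher side and 4 on the lower side of those with an unadjusted p under 0.05, against the 17.6% of all genes given above. They are described by their values. Of the 20 ER folding genes all were tested, and 15 had a higher mean log2 level with bryostatin, with a median log2 change of 0.15. Of all 11071 genes tested, 5967 were higher. Groups did not overlap for 5 of the 20, all higher. Of all genes tested, 12.9% were higher without overlap and 23.6% did not overlap in either direction. Whether the list differs from the 12.9% was not tested. The 5 were HSPA5 (0.24), the ER chaperone BiP, CALR (0.36), the lectin chaperone calreticulin, SDF2L1 (0.59), a cofactor of BiP, MANF (0.50), a stress-induced ER protein, and HYOU1 (0.23), an ER chaperone of the HSP70 family, where values are log2 changes. HSPA5 and CALR are the most abundant of the list, and the other 3 were named after their values were seen. CALR was at 307 ± 36.6 FPKM with bryostatin and 238 ± 4.75 FPKM in DMSO (SD, n = 3 each; unadjusted p = 0.0117, adjusted p = 0.217 in limma). Bryostatin replicate 1 had the highest list mean, 0.21 above the 6-library mean, against -0.01 and 0.04 in bryostatin replicates 2 and 3 and -0.06, -0.10 and -0.08 in DMSO replicates 1 to 3. The same library had the highest TXNDC5 level.

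Other steps of the secretory pathway had medians closer to 0. The 23 tested genes of ER import had a median log2 change of 0.05, with 1 gene, a higher one, at an unadjusted p under 0.05, and the signal recognition particle genes SRP9 and SRP14, the most abundant, had 0.17 and 0.06. The 18 genes of ER-associated degradation had a median of 0.04 and 0 at an unadjusted p under 0.05 in limma (0 called), with VCP at 0.14 and UBE2J1 at 0.19. The 16 tested genes of ER to Golgi transport had a median of -0.03, with TMED9, a cargo receptor, at 0.37 and TMED10 at 0.05. In that list 2 genes, both higher, had an unadjusted p under 0.05 in limma, TMED9 and SEC13. SEC13, a coat protein of transport vesicles named after its values were seen, had a log2 change of 0.29. Of all genes tested, 10.5% were higher at such a p, and nothing is read from this count or that of ER import. Sensors and regulators of the unfolded protein response had a median of -0.02 over 11 genes. ATF4, a stress-induced factor, was at 112 ± 5.83 FPKM with bryostatin and 95.2 ± 9.96 FPKM in DMSO (SD, n = 3 each), without overlap, while ATF6B had a log2 change of -0.05. ERN1, which cuts the XBP1 mRNA, had -0.30 (adjusted p = 0.302 in limma), and the sensor ATF6 had -0.15, each without overlap. In this list 1 gene was thus higher and 2 were lower without overlap. Of all genes tested, 12.9% were higher and 10.7% lower without overlap.

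**Figure D5:**
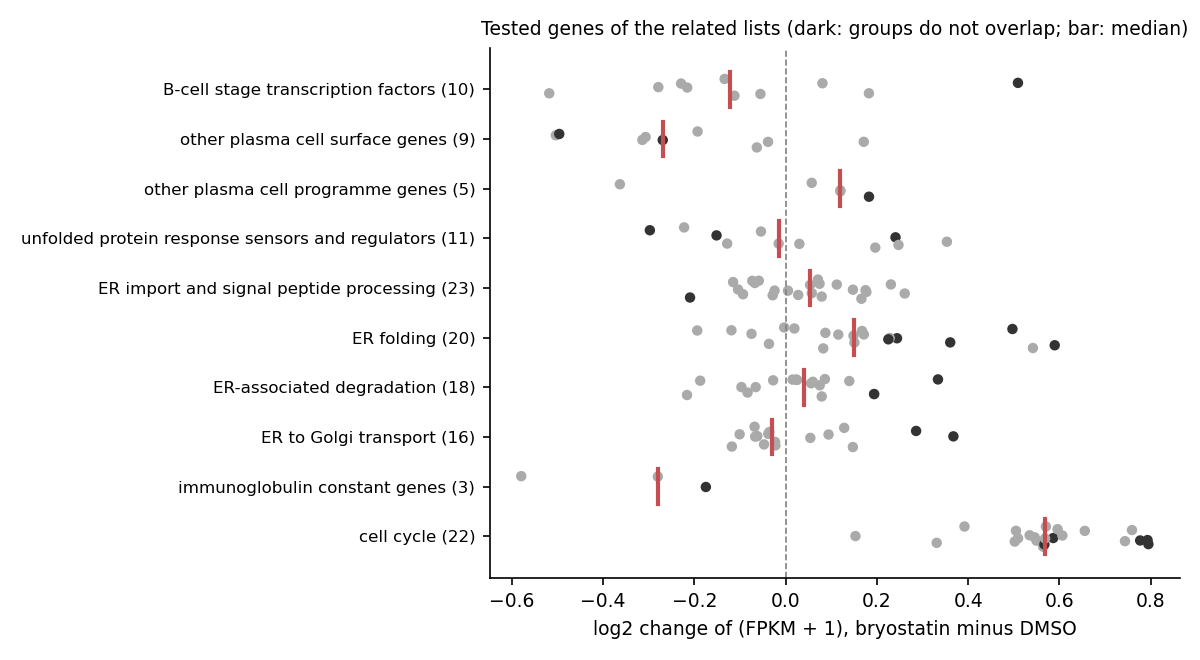
Log2 change of FPKM + 1, bryostatin minus DMSO (horizontal axis), of each tested gene in 9 related lists and the cell-cycle list, with the number of tested genes in brackets, dark points where the groups do not overlap and a red bar at the median. The median is 0.15 for ER folding genes, -0.27 for other plasma cell surface genes and 0.57 for cell-cycle genes.

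Other plasma cell surface genes had a median log2 change of -0.27 over the 9 of 13 that were tested. Of these 9, 8 were lower, as were 5104 of all 11071 genes tested. CD27, a TNF receptor family member, was at 64.6 ± 10.0 FPKM with bryostatin and 91.5 ± 13.7 FPKM in DMSO (SD, n = 3 each; unadjusted p = 0.0129, adjusted p = 0.225 in limma). CD38, an ectoenzyme of plasma cells and germinal centre B cells, was at 30.8 ± 9.85 FPKM with bryostatin and 43.5 ± 10.1 FPKM in DMSO, with overlapping libraries. TNFRSF17, the receptor BCMA, was at 0.980 ± 0.548 FPKM with bryostatin and 1.44 ± 0.527 FPKM in DMSO. Its DMSO libraries carried it over the filter of 1 FPKM, so its place among the 8 lower genes depends partly on that filter. Of 11 other plasma cell programme genes only 5 were tested. The elongation factor ELL2, which favours secreted over membrane immunoglobulin mRNA, was at 0.0072 FPKM in bryostatin replicate 1. It was listed at 0 in every other library of both groups, and no difference is read from this. POU2AF1, a B-cell coactivator, and the kinase PIM2 were the most abundant, with log2 changes of 0.06 and -0.36.

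Of 11 transcription factors of the B-cell stage 10 were tested, and MITF was listed at 0 in all 6 libraries. BCL6, the repressor that holds cells in the germinal centre, was at 86.5 ± 7.97 FPKM with bryostatin and 90.4 ± 15.0 FPKM in DMSO, and PAX5, the factor of B-cell identity, at 42.2 ± 2.92 FPKM with bryostatin and 45.7 ± 2.98 FPKM in DMSO (SD, n = 3 each). SPI1 had a log2 change of 0.08. Of the tested factors 7 had a lower mean log2 level with bryostatin, as had 5104 of all 11071 genes tested, and the median log2 change was -0.12. ID3, an inhibitor of E proteins, was the only one at an unadjusted p under 0.05, at 54.0 ± 6.54 FPKM with bryostatin and 38.0 ± 7.71 FPKM in DMSO (adjusted p = 0.227 in limma), and was named after its values were seen.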

How the data were processed

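PolyA RNA-seq of 3 bryostatin and 3 DMSO samples was analysed from the authors' deposited gene table of FPKM values. Per the submitters' processing notes the tools were CASAVA, HISAT2 2.0.5, featureCounts 1.5.0-p3 and DESeq2 1.20.0, with hg38. The sources used here do not give strand or multi-gene read settings. Coordinates of all 58735 genes equal GENCODE release 29. FPKM times gene length gave whole multiples of 1 step per library, from which reads were recovered. Library totals of 19405370 to 24468270 reads limit precision, and the 3-read limit covers counting error only. Within-group pairs of libraries all differed by more than sampling noise.

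Genes averaging 1 FPKM or more were tested with limma 3.58.1 (R 4.3.3), with an intensity trend, on log2(FPKM + 1), which understates changes of low genes, with Benjamini-Hochberg adjustment over 11071 genes and a threshold of 0.05. Calls were also run on simulated data with independent genes and a single dispersion. That simulation lacks the shared variation seen among these libraries, and nothing is concluded from it. Single values used the exact permutation test. Members, lists and tests were chosen with earlier results of these data known. Named genes were all members, the 2 most abundant genes of each list and the 2 genes most like each tested member. Others were named after their values were seen. Alternatives changed the pseudocount, filter, scaling, trend, weights (voom), replicate block and libraries. A marker gene of the B-cell list is not reported here.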

Additional observations from a re-analysis of the deposited data

How the results depend on the processing

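No tested member was called under any of the 16 alternatives. The count of genes called was 0 as reported, 1 with a pseudocount of 0.1 and 1 after rescaling to TPM, and ranged from 0 to 266 when each library was left out in turn. The 266 came without DMSO replicate 3, and 1 came without DMSO replicate 2. The cause was not tested. MZB1, TXNDC5 and IRF4 kept their direction under all 16, and PRDM1 under the 10 that gave it a value. The log2 change of XBP1 ranged from -0.066 to 0.053 and that of DERL3 from -0.037 to 0.021 over the libraries left out, turning positive in 3 of 6 cases each. Genes at an unadjusted p under 0.05 numbered 1191 with the replicate block, against 1954 without it, with 0 called in either fit and an adjusted p of 0.456 for MZB1 in limma. Same-numbered libraries did not deviate together, with correlations of -0.29, -0.32 and -0.11 across genes, so the number is not taken as a pairing. The filter of 0.1 FPKM combined with a pseudocount of 0.1 or with voom, and the untested differences of members below the filter, were chosen after seeing the data. PRDM1, at 26 to 157 reads per library, and SDC1 are limited by depth.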

Other observations

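The genes whose pattern over the 6 libraries was most like a member's were found by the root mean square difference of log2(FPKM + 1), each gene centred on its own mean, among 9258 protein-coding genes. For MZB1 these were CETN3 (0.037) and ITGB1BP1 (0.045), against a root mean square deviation of 0.23 for MZB1 itself. For TXNDC5 they were BRMS1 (0.046) and CALR (0.047), against 0.23 for TXNDC5. CALR is itself one of the ER folding genes. For IRF4 they were EPB41 and ZNF260 (0.032 each), against 0.22. JCHAIN was nearest to NDFIP1 (0.016) and CGN (0.028), XBP1 to MAP4K3 (0.021) and APAF1 (0.022), FKBP11 to PRICKLE3 (0.023) and SMYD5 (0.029), and DERL3 to GXYLT1 (0.016) and COQ4 (0.022). With 6 libraries and 9258 genes searched, close patterns are easily found, and nothing is read from them.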
